A study of Mus musculus with 9 samples.

Results

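The 9 keratin genes Krt12, Krt5, Krt14, Krt6a, Krt6b, Krt16, Krt17, Krt1 and Krt10 were compared in the central cornea of 3 mouse strains, out of 18193 genes named on the array, which also held 39 other keratin genes. Keratins are the filaments that carry mechanical load in epithelial cells, and each filament is built from 1 type I and 1 type II keratin paired in equal amounts. Basal cells of stratified epithelia use Krt5 (type II) with Krt14 (type I). Differentiated mouse corneal epithelium adds the type I keratin Krt12, with Krt5 as the type II partner. Krt6a and Krt6b (type II) and Krt16 and Krt17 (type I) are known for their induction in wounded or stressed skin. Krt1 (type II) and Krt10 (type I) form the pair of suprabasal epidermis.

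The 9 were chosen by symbol as the corneal, basal, stress and epidermal keratins, and all probe sets annotated with only that symbol were taken. The level of a gene is that of its brightest probe set by mean intensity, and its other probe sets serve as a check. The 9 genes had 15 probe sets, of which 13 were bright enough to be tested, and these covered 8 of the 9 genes. Krt17 was left out of testing.

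The samples were 9 adult male mice of 4 months, 3 each of SJL/J (SJL), C57BLKS/J (KS) and C57Bl/6J (B6). The labels give SJL a thick cornea and KS a thin one, and name no thickness for B6. A mouse gave a 2-mm punch of central cornea per eye, 2 in all, and these were pooled, so 1 array is 1 mouse and p-values measure the spread between mice of a strain. The labels name no treatment or transgene. Thickness and every other difference between these strains cannot be told apart. The punches hold epithelium, stroma and endothelium together, so fewer cells of a type and less RNA per cell cannot be told apart either.

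Corneal epithelium markers were bright in every mouse, and the skin and hair markers listed were very dim. The summed intensity of 9 corneal epithelium markers was 153335 to 158751 in SJL, 153621 to 157222 in KS and 155772 to 160953 in B6, and none was below 16. All 12 skin and hair markers on the array, among them Krt2, Lor and Flg, were below 16 on every array. Conjunctiva and limbus markers summed to 35602 to 37178 in SJL, 61184 to 62274 in KS and 64456 to 70579 in B6, with the goblet cell genes Muc5ac, Tff1 and Tff3 below 16 everywhere. That sum is weighted to its bright members, and some members, among them Krt18 and Krt19, had higher means in SJL than in B6. The arrays had upper quartiles of 380 to 396. KS replicate 3 held the retinal transcript Gnat1 at 2108, against 4.72 to 9.39 elsewhere, and B6 replicate 3 had the highest 3' to 5' log2 signal of Gapdh, at 1.55 against 0.73 to 1.17 elsewhere. Below, called means an adjusted p under 0.05 in a limma fit over 22519 probe sets, and log2 differences are on the log2(intensity + 10) scale.

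Krt12, the keratin that defines differentiated corneal epithelium, was not called in any of the 3 strain comparisons and ranked at the 99.97th percentile of mean intensity among probe sets. Its intensity was 27258, 26007 and 26547 in the 3 SJL mice, 26977, 26364 and 27083 in the KS mice, and 27731, 28376 and 29278 in the B6 mice. On this probe set the B6 mice lay above all SJL and KS mice, while SJL and KS overlapped. Means were 26604 ± 628 in SJL, 26808 ± 388 in KS and 28462 ± 777 in B6 (SD, n = 3 each).

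The log2 difference of Krt12 was -0.011 in SJL against KS (95% interval -0.18 to 0.15, adjusted p = 0.945), -0.086 in KS relative to B6 (-0.25 to 0.078, adjusted p = 0.564) and -0.097 in SJL against B6 (-0.26 to 0.067, adjusted p = 0.422). None of the 3 was called. The second Krt12 probe set gave -0.012 in SJL against KS, -0.084 in KS relative to B6 and -0.096 in SJL against B6. On it SJL and B6 overlapped, with SJL replicate 1 at 27495 and B6 replicate 1 at 27201, while KS and B6 stayed apart. A difference within those intervals is not shown to be absent.

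Krt5, the type II partner in basal and differentiated corneal cells, was not called in any comparison. It stood at 19661, 19343 and 20048 in SJL, 19364, 20160 and 19743 in KS, and 19781, 19802 and 19227 in B6. The 3 strains overlapped fully. The log2 differences were -0.0052 in SJL against KS (interval -0.17 to 0.16, adjusted p = 0.975), 0.011 in KS relative to B6 (-0.15 to 0.17, adjusted p = 0.958) and 0.0059 in SJL against B6 (-0.16 to 0.17, adjusted p = 0.972).

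Krt14, the type I partner of Krt5 in basal cells, was called higher in SJL than in B6, close to the threshold. Its brightest probe set carries a mark of shared sequence, and its second brightest does not. The moderated F-test for any strain difference gave an adjusted p of 0.0743 for the first and 0.0374 for the second. The levels of Krt14 below are those of the brightest probe set. Krt14 stood at 6584, 7572 and 7062 in SJL, 5993, 6182 and 5235 in KS, and 5703, 5732 and 4958 in B6. The SJL mice all lay above the KS and B6 mice, while KS and B6 overlapped. Means were 7072 ± 494 in SJL, 5804 ± 501 in KS and 5465 ± 439 in B6 (SD, n = 3 each).

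The log2 difference of Krt14 in SJL against B6 was 0.37 (SE 0.11, interval 0.13 to 0.61, adjusted p = 0.0456), a fold of 1.29. In SJL against KS it was 0.29 (interval 0.046 to 0.53) and was not called (adjusted p = 0.111), and in KS against B6 it was 0.086 (adjusted p = 0.710). The 2 comparisons with SJL share the SJL mice, and those with B6 share the B6 mice. The second brightest Krt14 probe set gave 0.54 in SJL against B6 (adjusted p = 0.0187), 0.30 in SJL against KS (adjusted p = 0.150) and 0.24 in KS relative to B6 (adjusted p = 0.324), with 5199, 5962 and 5741 in SJL, 4632, 5058 and 4082 in KS, and 3991, 4277 and 3366 in B6. The remaining and far dimmer one gave -0.41 (adjusted p = 0.436), with the B6 mice at 229, 487 and 219. The call was lost in 12 of 22 alternatives, with adjusted p between 0.0162 and 0.479. Leaving out any 1 of the mice but SJL replicate 1 ended it, with adjusted p of 0.0527 to 0.120. The conjunctiva and limbus markers, which include other basal keratins, summed to 35602 to 37178 in SJL against 64456 to 70579 in B6. Of the 10 tested, 2 were called higher and 5 lower in SJL against B6. Among all probe sets tested, 7.92% were called higher and 8.09% lower there. The part of these markers in the Krt14 difference was not tested.

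**Figure D1:**
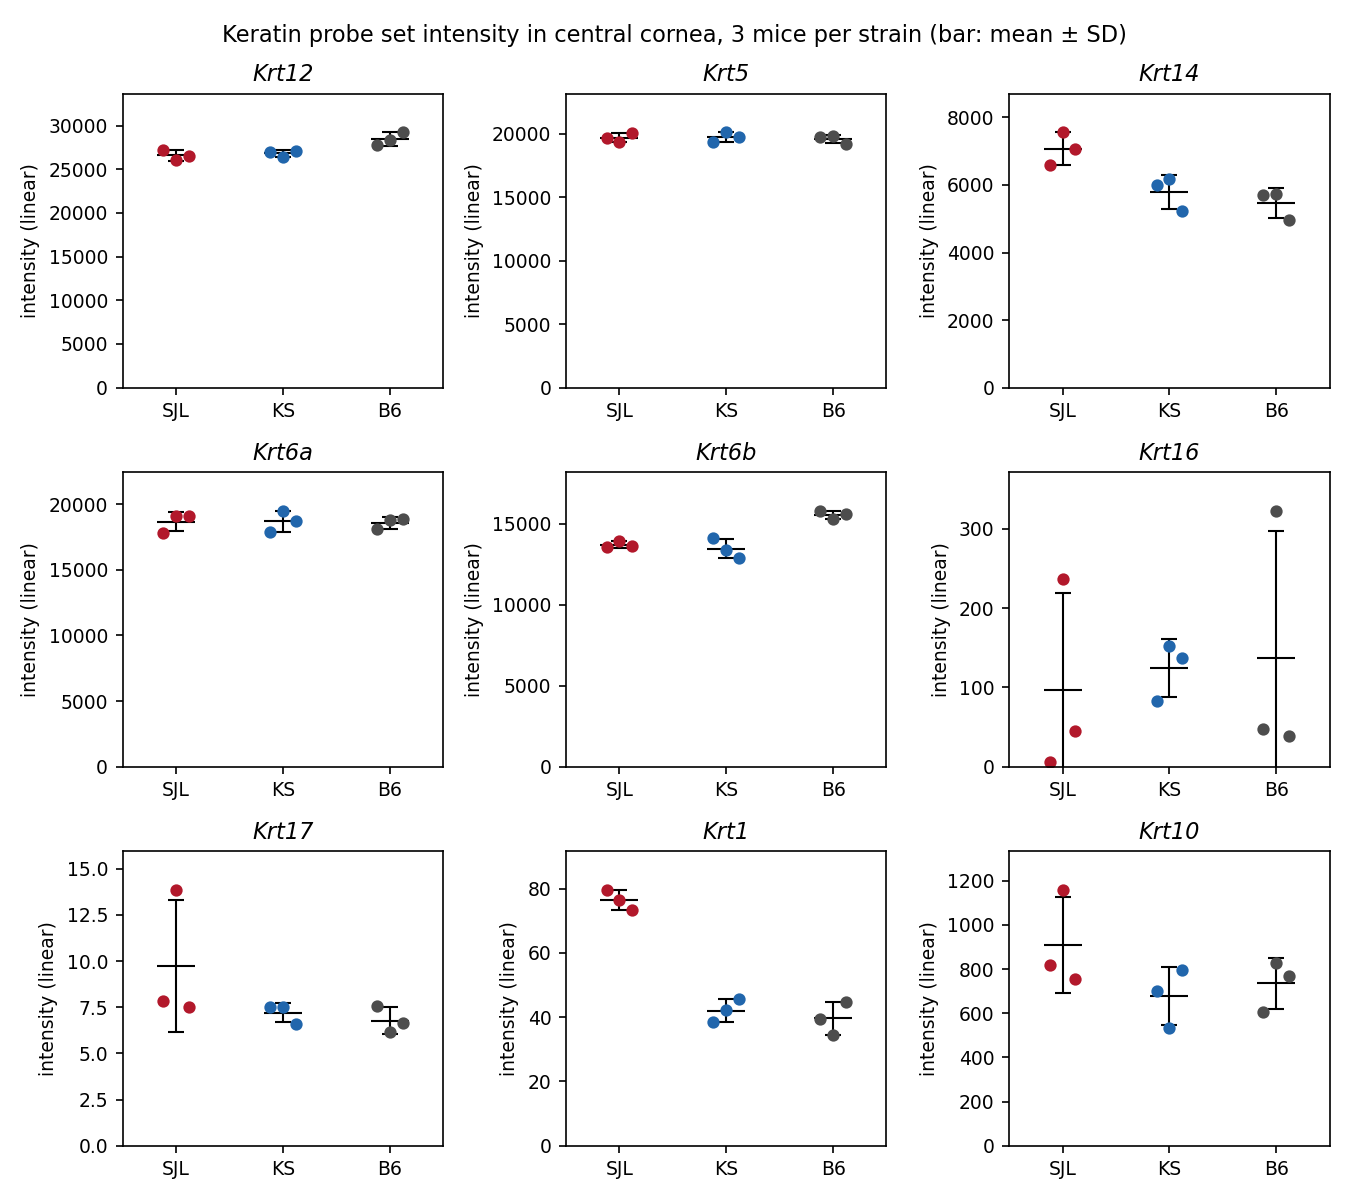
Intensity (linear scale, axis from 0) of the representative probe set of each of the 9 keratins in SJL, KS and B6 mice; each point is 1 mouse and the bar is the mean ± SD of 3 mice. Krt1 lies at 73.3 to 79.6 in SJL against 38.4 to 45.5 in KS and 34.5 to 44.7 in B6, Krt14 is highest in SJL, and Krt6b is highest in B6.

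Of the stress-type keratins, Krt6a and Krt6b were bright in every mouse, while Krt16 was dim and variable and Krt17 stayed at the lower end of the scale. Krt6a was at 17815, 19083 and 19120 in SJL, 17883, 19481 and 18697 in KS, and 18071, 18818 and 18881 in B6. On this probe set the strains overlapped in every pair. The log2 differences were -0.0010 in SJL against KS (interval -0.18 to 0.18, adjusted p = 0.996), 0.0069 in KS relative to B6 (adjusted p = 0.977) and 0.0059 in SJL against B6 (adjusted p = 0.975). The 2 other Krt6a probe sets gave differences between -0.072 and 0.035, none called. On the brighter of them the KS mice, at 12447.5 to 12820, lay below the SJL mice, at 12866 to 13048, and the B6 mice, at 12962 to 13714.5. On the dimmer one KS lay below B6, at 10147 to 10423 against 10425 to 10544, and SJL overlapped both.

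Krt6b was at 13558, 13938 and 13621 in SJL, 14098, 13354 and 12907 in KS, and 15752, 15284 and 15613 in B6. All 3 B6 mice lay above all SJL and KS mice, which overlapped with each other. The log2 difference was -0.21 in KS against B6 (interval -0.38 to -0.040, adjusted p = 0.166), -0.18 in SJL against B6 (-0.35 to -0.013, adjusted p = 0.143) and 0.028 in SJL against KS (adjusted p = 0.852), so none was called. With no filter on dim probe sets, both B6 comparisons passed, with adjusted p of 0.0292 and 0.0239, and they passed with an intensity trend in the variance prior, at 0.0161 and 0.0149. Krt6a and Krt6b are close copies of each other, and how far their probe sets share sequence was not tested.

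Bright probe sets of this kind showed small differences in general. Of 527 probe sets with a mean intensity of at least 10000, 19 (3.61%) were called in SJL against KS, 8 (1.52%) in KS relative to B6 and 20 (3.80%) in SJL against B6. Their median absolute log2 differences were 0.051, 0.060 and 0.067, against 0.21, 0.17 and 0.20 over all probe sets tested. Krt12, Krt5, Krt6a and Krt6b belong to this bright class, and whether the top of the scale compresses their differences was not tested.

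Krt16, the type I partner of the Krt6 keratins, varied more between mice of a strain than between strains. It was at 6.36, 237 and 45.5 in SJL, 83.3, 152 and 137 in KS, and 47.9, 323 and 38.9 in B6. SJL replicate 2 and B6 replicate 2 were high and SJL replicate 1 was low, and all 3 strains overlapped. The log2 difference was -1.10 in SJL against KS (SE 1.01, interval -3.41 to 1.20, adjusted p = 0.523), 0.41 in KS relative to B6 (adjusted p = 0.869) and -0.69 in SJL against B6 (adjusted p = 0.706). Single mice set these values: SJL against KS was -0.16 without SJL replicate 1 and -2.12 without SJL replicate 2. KS relative to B6 ranged from -0.088 without B6 replicate 3 to 1.30 without B6 replicate 2. SJL against B6 ranged from -1.70 without SJL replicate 2 to 0.26 without SJL replicate 1.

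Sprr1a, an envelope protein gene of stressed epithelium, was singled out after its values were seen. It had rank 2 among 10948 other genes by Pearson correlation with Krt16 over the same 9 arrays (r = 0.912). Its match to Krt16 is therefore no separate support. Sprr1a was highest in SJL replicate 2 and B6 replicate 2 within those strains, at 405, 1114 and 458 in SJL, 683, 828 and 1051 in KS and 499, 1363 and 730 in B6. Krt17, the other type I stress keratin, was not tested, since its mean lay below the floor of the filter, an intensity of 8.01. Its values were 7.82, 13.9 and 7.54 in SJL, 7.52, 7.49 and 6.59 in KS, and 7.57, 6.14 and 6.62 in B6, which is an upper bound on the transcript and not a measured level. A second Krt17 probe set stayed between 4.83 and 4.97, and 1 shared with Krt14 between 4.30 and 4.37.

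Krt1, the suprabasal type II keratin of skin, was higher in SJL than in both other strains. It was at 79.6, 76.3 and 73.3 in SJL, 38.4, 42.2 and 45.5 in KS, and 39.6, 34.5 and 44.7 in B6. The 3 SJL mice lay above all 6 others, and KS and B6 overlapped. Means were 76.4 ± 3.12 in SJL, 42.0 ± 3.56 in KS and 39.6 ± 5.06 in B6 (SD, n = 3 each).

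The log2 difference of Krt1 was 0.73 in SJL against KS (SE 0.10, interval 0.50 to 0.96, adjusted p = 0.00165), a fold of 1.66. In SJL against B6 it was 0.81 (interval 0.58 to 1.04, adjusted p = 0.000919), a fold of 1.75, and for KS against B6 it was 0.073 (adjusted p = 0.750). Both calls held in all 20 alternatives that tested Krt1, and with a pseudocount of 50 the differences were 0.46 and 0.50. Krt1 has 1 probe set, so no second one checks it, and a difference in sequence under its probes was not tested. The level in every strain is low on this scale, and the epidermal genes Krt2, Lor and Flg were below 16 on all arrays. Other epidermal genes were brighter: its partner Krt10 was at 535 to 1159. Of 20 suprabasal epidermal genes on the array, which include Lor and Flg, 11 were bright enough to be tested. The genes most like Krt1 by Pearson correlation over the 9 arrays, among 10948 other genes tested, were Rab2b (r = 0.987), Bckdhb (r = 0.986) and Zfp101 (r = 0.985), and within strains the r values were 0.80, 0.75 and 0.76. The arrays share the strain groups, so these r values are a description.

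Krt10, the type I partner of Krt1, was at 817, 1159 and 754 in SJL, 700, 535 and 794 in KS, and 606, 830 and 768 in B6. The strains overlapped in every pair, and no difference was called. The log2 difference was 0.42 in SJL against KS (interval -0.059 to 0.89, adjusted p = 0.231), -0.12 in KS relative to B6 (adjusted p = 0.801) and 0.29 in SJL against B6 (adjusted p = 0.402). Without SJL replicate 2 the difference was 0.23 in SJL against KS and 0.11 in SJL against B6. Without KS replicate 2 it was 0.26 in SJL against KS and 0.033 in KS relative to B6, without B6 replicate 1 it was -0.25 in KS relative to B6 and 0.16 in SJL against B6, without B6 replicate 2 it was -0.031 in KS relative to B6, and without KS replicate 3 it was -0.25 there.

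In counts, 1 of 8 tested keratins (Krt1) was called higher in SJL than in KS, where 15.5% of all probe sets tested were called, 6.98% higher and 8.52% lower. In KS against B6 none was called, where 5.71% were called, 2.91% higher and 2.80% lower. In SJL against B6, 2 of 8 (Krt1 and Krt14) were called, both higher, where 16.0% were called, 7.92% higher and 8.09% lower. By the moderated F-test, which asks for any strain difference, 1 of 8 (Krt1) was called, where 19.4% were called. With 8 genes these counts lie near the background shares, and nothing is read from them. The median log2 difference of the 8 was 0.013 in SJL against KS, 0.0090 in KS relative to B6 and 0.0059 in SJL against B6. Over all probe sets tested it was 0.0061, 0.020 and 0.018 in that order.

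**Figure D2:**
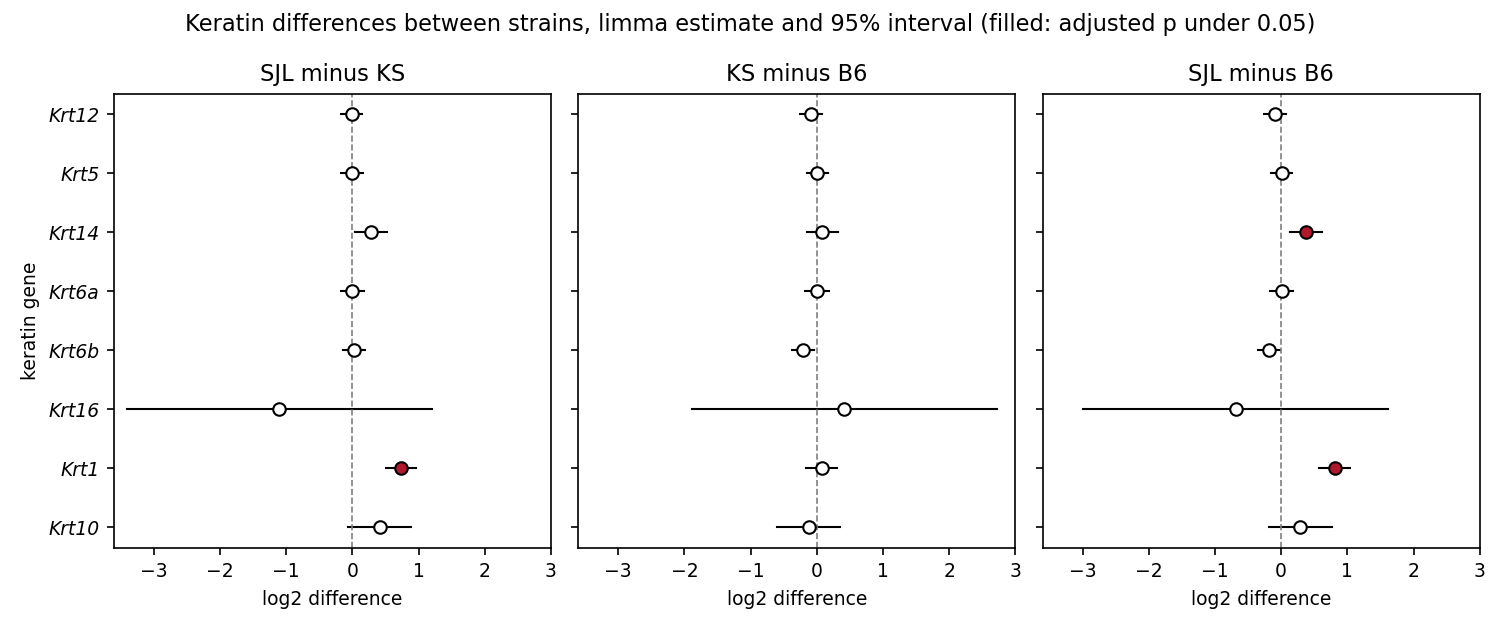
Log2 difference of the 8 tested keratins in the 3 strain comparisons, with the 95% interval of the limma fit; filled points have an adjusted p under 0.05. Krt1 is filled in both comparisons with SJL and Krt14 in SJL against B6, and the interval of Krt16 spans over 4 log2 units.

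**Figure D3:**
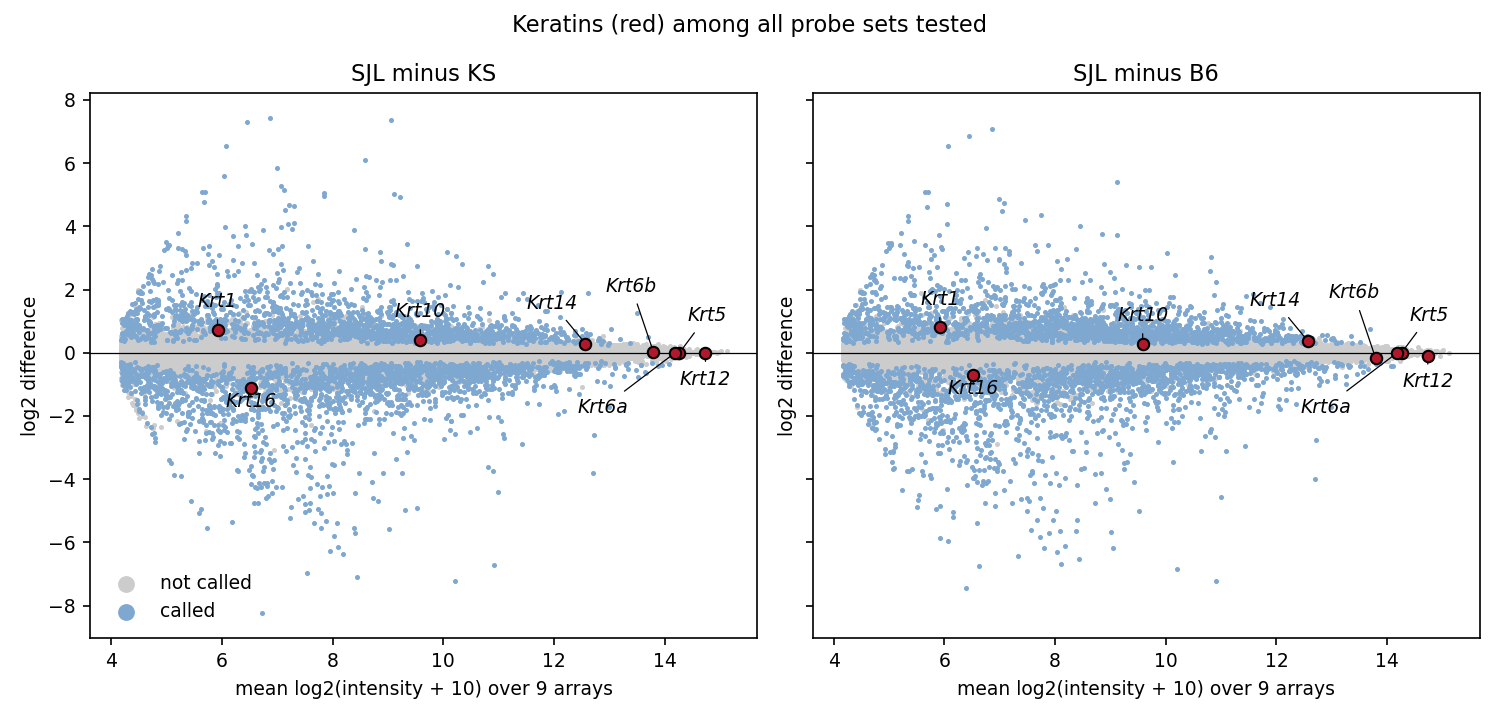
Mean log2 intensity (horizontal) and log2 difference (vertical) of all probe sets tested, called ones in blue, with the 8 tested keratins in red, for SJL minus KS and SJL minus B6. The bright keratins sit on the right where the cloud is narrow, and Krt1 sits on the left at 0.73 and 0.81.

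Within an array the levels of 2 keratins can be set against each other as a difference of log2 values. The value depends on the 2 probe sets and is no ratio of molecules, so only its difference between strains is read. Krt5 over Krt14, the basal pair, had a mean of 1.48 ± 0.11 in SJL, 1.77 ± 0.12 in KS and 1.84 ± 0.09 in B6 (log2, SD, n = 3 each). The SJL mice lay below all others. An exact permutation test over the 3 strains gave p = 0.0179, or 0.0476 after adjustment over 8 ratios, and the smallest p that test can give is 0.00357. The adjusted value depends on 2 other low ratios: Krt12 over Krt14, which shares the Krt14 values, and Krt6b over Krt17, where Krt17 is a bound. Without either of these it would be higher, so an adjusted p under 0.05 is not read as a result here. The difference was -0.29 in SJL against KS, -0.075 when KS was set against B6 and -0.37 for SJL against B6. It moved to -0.16 in SJL against B6 with the mean of all Krt14 probe sets, and to -0.54 with plain probe sets, those with no mark of shared sequence, which also moved KS relative to B6 to -0.23.

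Krt12 over Krt14, the differentiated corneal type I keratin against the basal one, had a mean of 1.91 ± 0.13 in SJL, 2.21 ± 0.14 in KS and 2.38 ± 0.15 in B6. Again the SJL mice lay below the other 6 (exact permutation p = 0.0179, adjusted 0.0476). Its difference was -0.30 in SJL against KS, -0.17 in KS relative to B6 and -0.47 in SJL against B6. With plain probe sets it moved to -0.33 in KS relative to B6 and to -0.64 in SJL against B6. With the mean of all probe sets it moved to -0.26 in SJL against B6. Both ratios carry the same Krt14 values, so they are 1 observation on Krt14 and not 2. The limit on the adjusted p of Krt5 over Krt14 holds for Krt12 over Krt14 too. Krt5 over Krt12, the pair of differentiated corneal cells, had a mean of -0.43 in SJL, -0.44 in KS and -0.54 in B6, with the B6 mice below the rest, and did not pass (exact permutation p = 0.0643, adjusted 0.129).

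Krt1 over Krt10, the epidermal pair, had a mean of -3.39 in SJL, -3.70 in KS and -3.90 in B6, and the strains overlapped (exact permutation p = 0.211, adjusted 0.290). Krt10 over Krt12 had a mean of -4.88 in SJL, -5.31 in KS and -5.27 in B6 (exact permutation p = 0.218, adjusted 0.290). Krt6a over Krt16 had a mean of 8.26 in SJL, 7.16 in KS and 7.57 in B6 (exact permutation p = 0.639), and Krt16 over Krt14 -6.86 in SJL, -5.47 in KS and -5.80 in B6 (exact permutation p = 0.479, adjusted 0.547), both led by the spread of Krt16. Krt6b over Krt17 had a mean of 9.46 in SJL, 9.61 in KS and 9.86 in B6 (exact permutation p = 0.00714, adjusted 0.0476). Krt17 was at the lower end of the scale on nearly all arrays and at 13.9 in SJL replicate 2, so that last ratio compares Krt6b with a bound and not with a measured level. It differed by -0.16 in SJL against KS, by -0.25 in KS relative to B6 and by -0.40 in SJL against B6, and the last 2 moved to -0.29 and -0.60 with a pseudocount of 1.

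**Figure D4:**
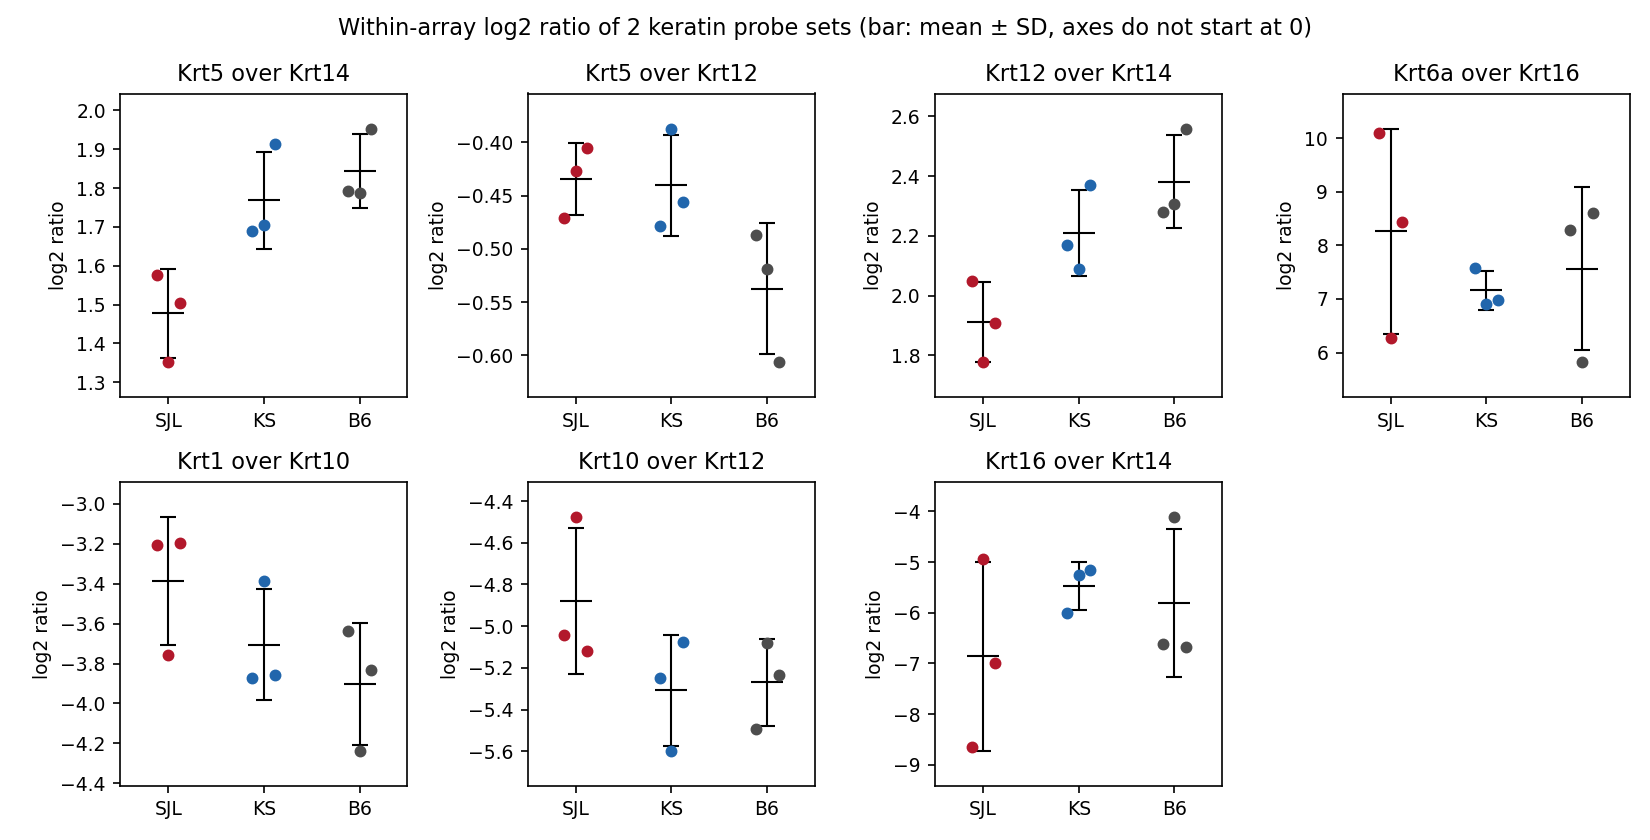
Within-array log2 ratio of 2 keratin probe sets in SJL, KS and B6 mice, 1 point per mouse with the mean ± SD of 3 mice; the axes do not start at 0. The SJL mice sit below the rest for Krt5 over Krt14 and for Krt12 over Krt14, and the strains overlap for Krt1 over Krt10.

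Krt12 and Krt10 lie next to each other on chromosome 11, in the type I cluster, where Krt14, Krt16 and Krt17 also follow one another, and Krt6b, Krt6a and Krt5 follow one another in the type II cluster on chromosome 15 (RefSeq, GRCm38.p6, protein-coding genes). The 2 neighbours include the cornea-specific and the epidermal type I keratin of the ratio above, so the 250 bases before their annotated starts are shown, with TATAAA in capitals. Both genes are on the minus strand, and the reference is of C57BL/6J type, so it carries no SJL or KS variant. The windows are chr11:99422260-99422509 for Krt12 and chr11:99389365-99389614 for Krt10.
Krt12: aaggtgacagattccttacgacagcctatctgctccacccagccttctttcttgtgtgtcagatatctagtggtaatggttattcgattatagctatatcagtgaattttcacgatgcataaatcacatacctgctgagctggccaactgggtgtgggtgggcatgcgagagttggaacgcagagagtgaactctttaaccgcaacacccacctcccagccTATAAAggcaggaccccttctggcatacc
Krt10: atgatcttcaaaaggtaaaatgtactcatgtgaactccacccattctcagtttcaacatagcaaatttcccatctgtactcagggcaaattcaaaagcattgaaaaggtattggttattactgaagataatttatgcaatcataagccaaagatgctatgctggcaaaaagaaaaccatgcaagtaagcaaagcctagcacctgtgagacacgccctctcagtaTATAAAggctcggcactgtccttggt
TATAAA starts 29 bases before the start of Krt12 and 26 before that of Krt10. The letters, on either strand, are in 4063 of 32851 RefSeq promoters (12.4%), and the windows of Krt5 and Krt14 do not hold them. A match is a description of these letters, and the arrays measured transcripts and no promoter.

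The array held 39 other keratin genes, of which 27 were below 16 on all arrays and 12 were tested. In SJL against KS, 0 were higher and 4 lower, in KS against B6 1 was higher and 1 lower, and in SJL against B6 3 were higher and 3 lower. Over all probe sets tested, 15.5%, 5.71% and 16.0% were called in that order. With 12 genes nothing is read from these counts. The median log2 difference was -0.36, 0.32 and 0.35. Krt15, of limbal and basal cells, stood at 112 ± 124 in SJL against 8079 ± 1173 in KS and 11551 ± 1938 in B6, the largest difference among the 12 (-6.70 and -7.21). Its interval in SJL against KS was -8.39 to -5.02. The SJL mice were at 251, 73.5 and 11.2, the last near the filter floor of 8.01, so the size of the difference depends on the pseudocount. Krt13, of non-cornified stratified epithelia, had a log2 difference of -1.72 in SJL against KS. Krt75 was called lower in SJL than in KS, at 6.37 to 6.40 in SJL and 31.4 to 45.6 in KS. Krt4, paired with Krt13 in such epithelia, was called lower in KS and in SJL than in B6, at 4.08 to 4.10 in SJL, 6.90 to 38.1 in KS and 56.8 to 154 in B6. The SJL levels of Krt75 and Krt4 lay below the filter floor of 8.01, so these genes were tested only through the strains where they were brighter. The size of those differences is set by the pseudocount and is not given. Krt18 had 1.85 in KS against B6, and Krt23 2.30 in SJL against B6. Outside the naming rule, and singled out after their values were seen, Krt18 had -1.01 in SJL against KS and 0.84 in SJL against B6, Krt13 had -1.70 in SJL against B6, and Krt19 had 0.67 there. Sequence differences under these probes were not tested.

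Among 20 tested desmosome and plakin genes, which anchor keratin filaments, 1 was higher and 1 lower in SJL against KS (Tchp 0.68, Dsg2 -0.50), 1 higher in KS against B6 (Dsg2 0.72), and 1 lower in SJL against B6 (Pkp2 -1.25). The shares called among all probe sets tested were 15.5%, 5.71% and 16.0% in that order. Counts in this list and the lists below are small, and nothing is read from them. Dsg2, a desmosomal cadherin, had a mean of 2524 ± 184 in SJL, 3587 ± 538 in KS and 2170 ± 170 in B6. The medians of the list were 0.013, -0.10 and -0.092.

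Of 20 tested transcription factors known to act on keratin genes, 0 were called in SJL against KS (5 with an unadjusted p under 0.05) and 0 in KS against B6 (0 with an unadjusted p under 0.05). In SJL against B6, 1 was lower, Grhl3, an epidermal differentiation factor, at -0.53 (adjusted p = 0.0477). Singled out after their values were seen, and not called in any comparison, were 2 more factors. Pax6, the master regulator of eye development, had a mean of 11282 ± 763 in SJL, 11448 ± 598 in KS and 11253 ± 637 in B6, and Klf4, a corneal barrier factor, 12583 ± 272 in SJL, 12041 ± 469 in KS and 12896 ± 478 in B6. The medians of the list were -0.059, -0.086 and -0.12.

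Of 11 tested wound and stress genes, 1 was higher and 2 lower in SJL against KS, 1 higher in KS against B6, with 2 higher and 2 lower for SJL against B6. The shares called over all probe sets tested were 15.5%, 5.71% and 16.0%. Il1rn, the interleukin-1 receptor antagonist, had a mean of 83.0 ± 16.5 in SJL, 672 ± 63.1 in KS and 351 ± 0.0911 in B6, with log2 differences of -2.89, 0.91 and -1.97. Tslp, an epithelial cytokine, had a mean of 237 ± 26.3 in SJL, 64.3 ± 21.3 in KS and 71.8 ± 21.3 in B6, at 1.76 in SJL against KS and 1.62 in SJL against B6. Ereg, an epidermal growth factor receptor ligand, had -1.28 in SJL against KS, and S100a9, a neutrophil and stress protein, 3.31 in SJL against B6. The medians of the list were -0.0074, 0.079 and -0.41. Krt6a, Krt6b and Krt16 were not called in any comparison, and Krt17 was not tested.

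Of 11 tested suprabasal epidermal genes, 0 were higher and 3 lower in SJL against KS (Sbsn -1.52, Casp14 -1.45, Tgm1 -1.03), 1 was higher in KS against B6 (Cst6 0.78), and 2 were lower in SJL against B6 (Casp14 -1.98, Sbsn -0.84). Among all probe sets tested, 15.5%, 5.71% and 16.0% were called in these comparisons. Casp14, a caspase of cornifying cells, had a mean of 11.1 ± 4.07 in SJL, 47.8 ± 10.9 in KS and 77.8 ± 36.6 in B6. Its SJL level is near the filter floor of 8.01, so the size of its differences depends on the pseudocount. The medians were -0.25, -0.054 and -0.26. The comparisons with SJL had 3 and 2 called genes, all lower in SJL, where Krt1 was higher, and nothing is read from so few. The others, 8 in SJL against KS and 9 in SJL against B6, were not called. Krt10, the partner of Krt1, was not called either, at 0.42 in SJL against KS and 0.29 in SJL against B6.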

How the data were processed

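RNA of 9 mice, each a pool of 2 punches of central cornea, was measured on 1 array per mouse. The deposited intensities, on a linear scale, had been summarised per probe set by the authors. Their summary and scaling steps are not given in the sources used here. Values spanned 3.39 to 37501 (median 7.48), and 3 arrays a strain limit the precision. Of 45037 probe sets that were not controls, 34945 had 1 symbol, 932 several and 9160 none. From the deposited intensities, log2(intensity + 10) was fitted with limma 3.58.1 in R 4.3.3, with 1 mean per strain over 9 arrays and 6 residual degrees of freedom. Probe sets below the median log2 level (4.17) were left out, which left 22519 for a two-sided test. P-values were adjusted by Benjamini-Hochberg over these. Ratios were tested over strains by exact permutation of 1680 assignments. Named genes were the 9 keratins, the largest called differences among other keratins (up to 3 a comparison) and those of 4 gene lists (up to 3 in SJL against KS, up to 2 in the others); Pax6, Klf4, Sprr1a and a few keratin values stand outside that rule, as stated where they appear. The members and lists were chosen with earlier results of these data known. Same-numbered mice of different strains were not paired by design, and their deviations correlated at -0.266 to 0.263. The fit was tested on simulated data. Of 22 alternatives, the effects are in the closing section; the second brightest probe set was added after the data were seen.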

Additional observations from a re-analysis of the deposited data

How the results depend on the processing

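Over the 22 alternatives, Krt1 was higher in SJL than in KS and in B6 wherever it was tested. With a filter at the 70th percentile Krt1 was no longer tested, so 0 keratins were called in SJL against KS and 1 in SJL against B6, and the probe sets called numbered 2101 in SJL against KS, 742 for KS against B6 and 2156 for SJL against B6. Array weights gave 7121, 2139 and 5546 probe sets, and 2 keratins in SJL against KS (Krt14 added). No filter gave 838 probe sets and 1 keratin in KS against B6, and the intensity trend also gave 1 keratin there (Krt6b). In SJL against B6, a pseudocount of 1, only the 6 arrays compared, the mean of all probe sets and the second brightest probe set each gave 1 keratin; the last gave 0 in SJL against KS, where genes with 1 probe set drop out. Leaving out 1 mouse gave 1 to 2 keratins in SJL against B6 and 745 to 1452 probe sets in KS against B6, with 745 without KS replicate 2 and 823 without KS replicate 3.

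Some keratin differences, none called, changed sign, most of them near 0, with Krt16 (0.41 in KS relative to B6 and -0.69 in SJL against B6) the exception. In SJL against KS, median centring gave 0.011 for Krt12, 0.017 for Krt5 and 0.021 for Krt6a, array weights 0.013 for Krt5 and 0.016 for Krt6a, and Krt6a was 0.035 with plain probe sets, 0.011 with the mean of all and 0.035 with the second brightest. In KS against B6, Krt6a was -7.61e-05 with median centring, -0.072 with plain probe sets, -0.031 with the mean of all and -0.072 with the second brightest, and Krt14 was -0.0053 with the mean of all. In SJL against B6, Krt6a was -0.037, -0.020 and -0.037 under those 3 choices. Leaving out 1 mouse gave, in SJL against KS, -0.029 to 0.0051 for Krt12, -0.020 to 0.0095 for Krt5, -0.032 to 0.032 for Krt6a and -0.0017 to 0.062 for Krt6b. In KS against B6 it gave -0.0036 to 0.025 for Krt5, -0.024 to 0.038 for Krt6a, -0.088 to 1.30 for Krt16, -0.0020 to 0.15 for Krt1 and -0.25 to 0.033 for Krt10. In SJL against B6 it gave -0.0080 to 0.018 for Krt5, -0.014 to 0.039 for Krt6a and -1.70 to 0.26 for Krt16. The causes of these changes were not tested. The replicate number as a block gave 3315, 1124 and 3509 probe sets and changed no keratin call.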
